A study of Homo sapiens with 12 samples.

Results

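LAPTM5 and VGLL1 are 2 genes whose transcript levels differed in opposite directions with everolimus in 2 human lines of cutaneous squamous cell carcinoma, HSC-1 and A431. They were chosen from these same arrays for that pattern. Each had 1 named probe set, and they are 2 of 10613 genes tested, out of 14884 with a named probe set. Everolimus is a rapamycin analogue that inhibits mTOR complex 1, the kinase complex that couples growth factor and nutrient signals to protein synthesis. The 12 Affymetrix arrays fell into 4 groups of 3: HSC-1 with 100 nM everolimus for 72 h, HSC-1 with the vehicle DMSO, A431 with 100 nM everolimus for 72 h, and A431 with DMSO. The labels describe both lines as skin squamous cell carcinoma, and the culture medium held 10 or 20% serum, with neither level tied to a line. Whether separate cultures lay behind the 3 arrays of a group is not stated, so p-values measure the spread between arrays, which may be technical.

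LAPTM5 encodes a lysosomal membrane protein with several membrane spans, best known in blood cells, where it binds ubiquitin ligases of the NEDD4 type and sends antigen receptors to the lysosome for degradation. VGLL1 encodes a relative of the fly cofactor Vestigial. It has no DNA-binding domain of its own and acts through TEAD transcription factors, the same partners that the Hippo pathway effectors YAP1 and WWTR1 (TAZ) use. VGLL1 is expressed in epithelia and trophoblast. The study's title names resistance to everolimus as its question, but no label calls either line resistant or sensitive.

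LAPTM5 lies on chromosome 1 (GRCh38.p14 positions 30732469 to 30757774, minus strand) and VGLL1 on the X chromosome (136532215 to 136556799, plus strand). The 250 bases before each annotated start are shown because TEAD factors are the DNA-binding partners of the VGLL1 protein. Capitals mark the core letters of the TEAD motif, GGAATG on either strand. The sequences are from RefSeq, build GRCh38.p14, read 5′ to 3′ on the strand of the gene (chr1:30757775-30758024 for LAPTM5, chrX:136531965-136532214 for VGLL1).
LAPTM5: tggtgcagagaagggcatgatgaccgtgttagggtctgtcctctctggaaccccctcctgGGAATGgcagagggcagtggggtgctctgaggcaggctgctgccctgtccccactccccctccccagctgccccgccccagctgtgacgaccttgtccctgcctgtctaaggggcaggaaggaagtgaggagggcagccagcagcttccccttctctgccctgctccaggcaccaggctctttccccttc
VGLL1: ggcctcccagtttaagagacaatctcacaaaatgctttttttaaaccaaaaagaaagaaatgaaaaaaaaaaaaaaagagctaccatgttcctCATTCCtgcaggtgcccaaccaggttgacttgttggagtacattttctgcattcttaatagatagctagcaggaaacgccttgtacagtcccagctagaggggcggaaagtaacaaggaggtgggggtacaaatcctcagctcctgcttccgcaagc
Each window held 1 match, which began 190 bases before the start in LAPTM5 and 157 bases before it in VGLL1. Of 35116 RefSeq windows of this length, 11.9% held at least 1 such match. Neither window held the AP-1 motif TGANTCA (6.6% of all windows) or the E-box CACGTG (6.3%), searched on both strands, and the 3 motifs were chosen with earlier results of these data known. Both windows held 3 CpG dinucleotides, against a median of 11 over all windows. Their base composition differed, with 64.8% G and C in LAPTM5 and 43.6% in VGLL1, against a median of 58.0%. A match or its absence describes these letters only.

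LAPTM5 was lower in HSC-1 and higher in A431 with everolimus. The values are log2 expression levels made by the authors with RMA, a method that corrects background, places arrays on a common distribution and summarises each probe set. In HSC-1 the LAPTM5 level (probe set 16684310) was 7.02, 7.09 and 7.05 on the everolimus arrays, against 8.57, 8.52 and 8.54 on the DMSO arrays. In A431 it was 5.39, 5.85 and 5.78 with everolimus, against 5.23, 5.33 and 5.04 with DMSO. The everolimus arrays of HSC-1 thus lay well below the DMSO arrays, while in A431 the lowest everolimus array lay just above the highest DMSO array. The HSC-1 means were 7.05 ± 0.04 with everolimus and 8.54 ± 0.03 with DMSO (SD, n = 3 each), a log2 difference of -1.49 ± 0.10 (moderated SE) or 2.81-fold lower. The A431 means were 5.67 ± 0.25 and 5.20 ± 0.15, a log2 difference of 0.47 ± 0.10 or 1.39-fold higher. Everolimus replicate 1 of A431 was the low array of its group, and the A431 difference was 0.61 without it and 0.39 without DMSO replicate 3. The HSC-1 difference minus the A431 difference was -1.97 ± 0.14, the lowest of all 10613 genes. In bulk RNA, fewer cells that express a gene and less of its RNA per cell cannot be told apart.

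VGLL1 went the other way in both lines. Its level (probe set 17107309) was 7.12, 7.08 and 6.96 on the everolimus arrays of HSC-1, against 6.42, 6.39 and 6.69 on the DMSO arrays. In A431 it was 8.33, 8.27 and 8.35 with everolimus, against 9.09, 9.08 and 8.99 with DMSO. The groups did not overlap in either line, and DMSO replicate 3 of HSC-1 was the array nearest the other group. The HSC-1 means were 7.06 ± 0.08 with everolimus and 6.50 ± 0.17 with DMSO (SD, n = 3 each), a log2 difference of 0.56 ± 0.07 (SE) or 1.47-fold higher. The A431 means were 8.32 ± 0.04 and 9.05 ± 0.06, a log2 difference of -0.74 ± 0.07 or 1.67-fold lower. The HSC-1 difference minus the A431 difference was 1.30 ± 0.10, the fifth highest of all 10613 genes.

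**Figure D1:**
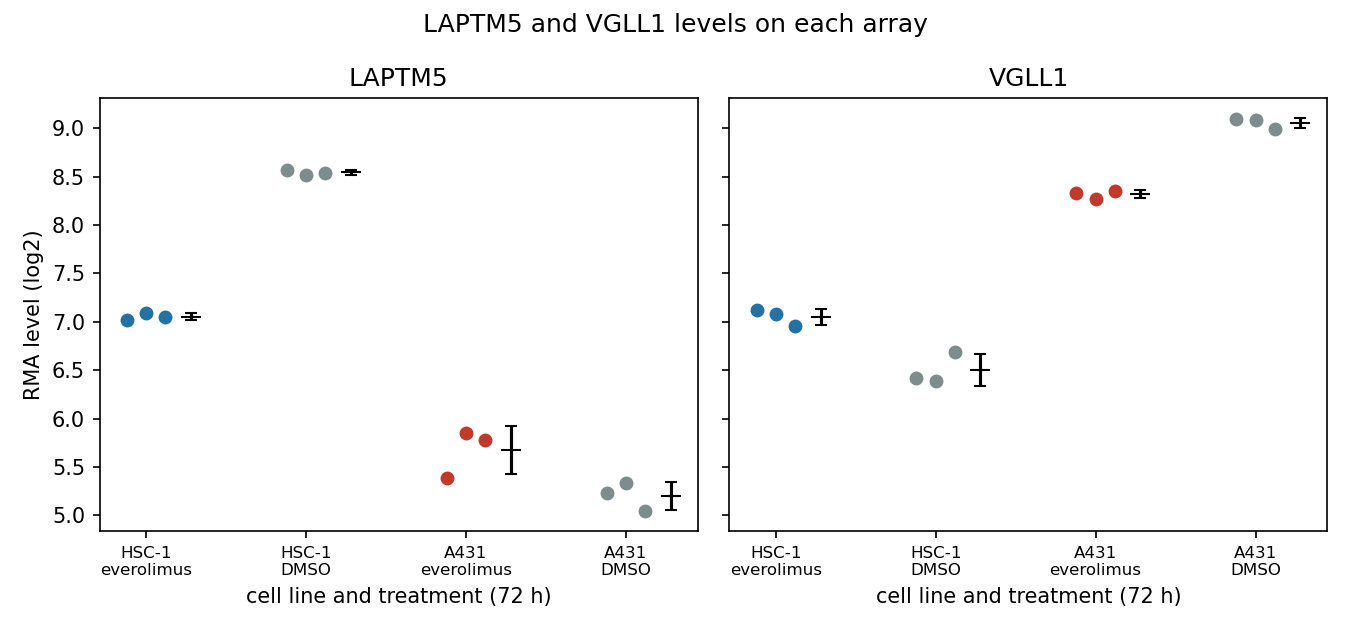
RMA levels (log2, vertical axis) of LAPTM5 and VGLL1 on the 12 arrays by line and treatment, with points for single arrays and black bars for the mean and SD of 3 arrays. LAPTM5 averaged 7.05 in HSC-1 with everolimus, against 8.54 with DMSO, and VGLL1 8.32 in A431 with everolimus, against 9.05 with DMSO.

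These differences chose the genes, so they are given as a description with no test. For orientation, the everolimus and DMSO arrays did not overlap for 33.3% of genes in HSC-1 and 24.5% in A431, and for 3.97% they were apart in both lines in opposite directions. The shares of genes past a limma adjusted p of 0.05 were 18.6% in HSC-1, 6.73% in A431 and 10.5% for the difference between the lines. By direction, 11.3% were lower and 7.34% higher in HSC-1, 4.33% were lower and 2.39% higher in A431, and the difference was negative for 5.69% and positive for 4.84%.

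The levels of both genes also differed between the lines, in opposite directions. This was tested with the average of HSC-1 over both treatments minus the average of A431, a contrast that is orthogonal to both everolimus effects and to their difference. LAPTM5 was 5.14-fold higher in HSC-1 (log2 difference 2.36 ± 0.07 SE, limma adjusted p = 5.65e-16), with all 6 HSC-1 arrays above all 6 A431 arrays. VGLL1 was 3.75-fold lower in HSC-1 (-1.91 ± 0.05, limma adjusted p = 8.37e-17), with all 6 HSC-1 arrays below all 6 A431 arrays. The lines differed widely in general, since 66.8% of genes passed this contrast, 32.6% higher and 34.3% lower in HSC-1. LAPTM5 was lowest in A431 with DMSO, then came A431 with everolimus and HSC-1 with everolimus, and HSC-1 with DMSO was highest. VGLL1 had the reverse order, and in both genes each step was larger than the SD of either neighbour, the smallest being 0.47 for LAPTM5 and 0.56 for VGLL1. In each line, the gene that was higher there than in the other line was the one that was lower with everolimus. This statement uses the everolimus effects that chose the genes and is a description. The gap between the line means (HSC-1 minus A431) for LAPTM5 was 1.38 with everolimus and 3.35 with DMSO, a 2.60-fold and a 10.2-fold difference. For VGLL1 the gap was -1.26 with everolimus and -2.55 with DMSO, a 2.39-fold and a 5.88-fold difference. The change of each gap with everolimus is the difference of effects that chose the genes, so it is no further result.

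The table carried no detection flags, so each level was set against the median of its own array. Both genes lay above that median on all 12 arrays, so neither entered the tested genes through a single group. LAPTM5 was 2.66 to 2.73 above it in HSC-1 with everolimus and 4.14 to 4.22 with DMSO, but at least 1.04 above it in A431 with everolimus and 0.68 to 0.99 with DMSO. VGLL1 lay above 80.2 to 86.5% of all probe sets in HSC-1 and above 94.1 to 96.8% in A431. LAPTM5 lay above 85.6 to 95.4% in HSC-1. In A431 it lay above only 67.1 to 73.4% with everolimus and 61.9 to 66.3% with DMSO. Most of these probe sets are unnamed, so the A431 difference of LAPTM5 was one between low levels.

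Opposite calls were counted over all genes. Whether they were fewer or more than the shares called in each line would give was not tested. Of 10613 genes, 304 (2.86%) passed the threshold in both lines and 85 (0.801%) did so with opposite signs. Of the 85, 32 (0.302%) were lower in HSC-1 and higher in A431, the direction of LAPTM5, and 53 (0.499%) were higher in HSC-1 and lower in A431, the direction of VGLL1. Both genes are among the 85 because they were chosen for it. None of the 85 changed at least 1.5-fold in both lines, and when ranked by the smaller of its 2 effects VGLL1 was the third and LAPTM5 the sixth. The count of 85 was lower when some A431 arrays were left out, which also leaves fewer arrays in a group. It was 43 when DMSO replicate 2 of A431 was left out and 49 for DMSO replicate 1, 50 for everolimus replicate 1 and 52 for everolimus replicate 2, and it was 33 with no intensity trend in the variances.

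**Figure D2:**
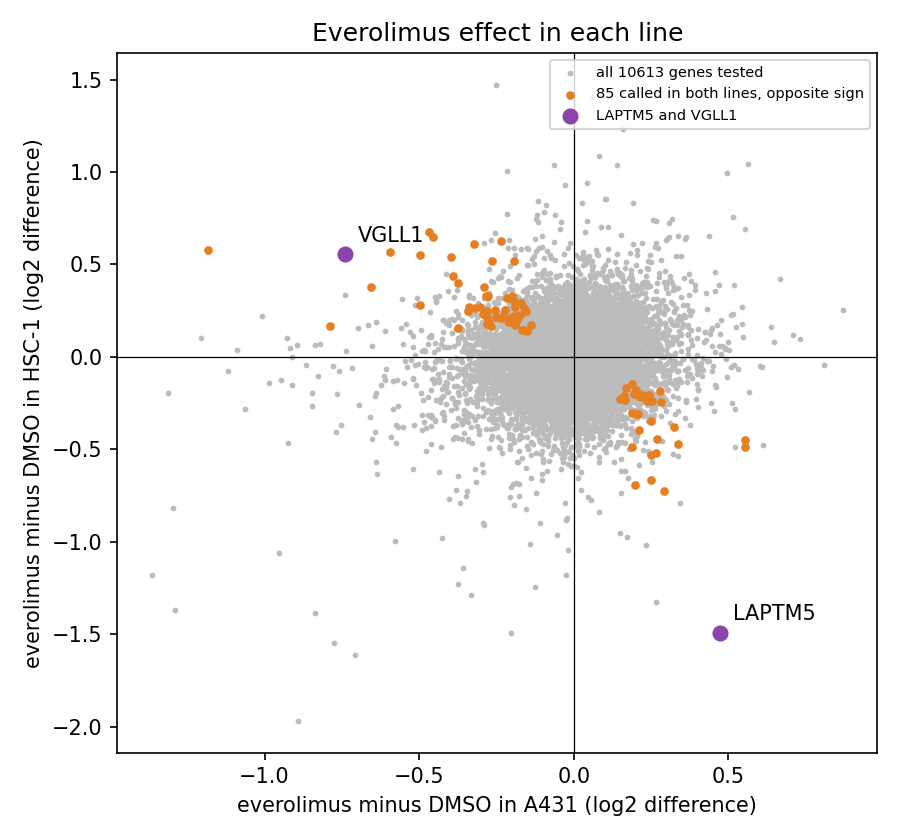
Log2 difference of everolimus minus DMSO in A431 (horizontal) against HSC-1 (vertical) for each of 10613 tested genes, with the 85 genes called in both lines with opposite signs in orange and LAPTM5 and VGLL1 in purple. LAPTM5 lies apart at the lower right (0.47 in A431, -1.49 in HSC-1) and VGLL1 at the upper left (-0.74 and 0.56).

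Among the 32 genes with opposite calls in the direction of LAPTM5, those with the largest difference of effects besides LAPTM5 itself were CLSPN, C3, HOXA2 and CPA4. CLSPN, the claspin adaptor of the replication checkpoint, fell in HSC-1 (-0.49 ± 0.09 SE, limma adjusted p = 0.000691) and rose in A431 (0.55 ± 0.09, limma adjusted p = 0.000596). It had a second, dim probe set (mean level 2.13, against 6.89 for the one used) with differences of 0.01 in HSC-1 and -0.06 in A431, and with the mean of both probe sets these calls were lost (limma adjusted p = 0.166 and 0.249, the highest of their alternatives, which began at 0.000179 and 0.000154). C3, the central complement component, fell in HSC-1 (-0.73 ± 0.07) and rose in A431 (0.29 ± 0.07). The homeobox gene HOXA2 fell in HSC-1 (-0.45 ± 0.10) and rose in A431 (0.55 ± 0.10). The carboxypeptidase CPA4 fell in HSC-1 (-0.67 ± 0.07) and rose in A431 (0.25 ± 0.07, limma adjusted p = 0.041).

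Among the 53 genes with opposite calls in the direction of VGLL1, those with the largest difference besides VGLL1 itself were PIGR, GPNMB, OLFML2A and MIR3936. PIGR, the polymeric immunoglobulin receptor, rose in HSC-1 (0.58 ± 0.13) and fell in A431 (-1.18 ± 0.13), and its mean HSC-1 levels of 4.19 with everolimus and 3.62 with DMSO were below the array medians of 4.34 to 4.39. GPNMB, a transmembrane glycoprotein found in melanosomes and lysosomes, rose in HSC-1 (0.57 ± 0.08) and fell in A431 (-0.59 ± 0.08). OLFML2A, a secreted olfactomedin-like protein, rose in HSC-1 (0.68 ± 0.05) and fell in A431 (-0.47 ± 0.05). The probe set of the microRNA gene MIR3936, which cannot tell the mature microRNA from its precursor or host transcript, rose in HSC-1 (0.65 ± 0.12) and fell in A431 (-0.45 ± 0.12, limma adjusted p = 0.0289).

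The A431 calls of C3, CPA4 and MIR3936 were lost in some fits with a single array left out. Such a fit has fewer arrays in a group, so a loss alone does not show that the call came from that array. In these fits the A431 difference ran from 0.28 to 0.31 for C3 and from 0.21 to 0.30 for CPA4. For MIR3936 it ran from -0.57 to -0.35. All 3 calls were lost when A431 DMSO replicate 2 was left out (limma adjusted p = 0.0512, 0.113 and 0.0918) and without A431 everolimus replicate 1 (0.0522, 0.108 and 0.134). Without A431 DMSO replicate 1 those of CPA4 and MIR3936 were lost (both 0.156). For MIR3936 the same happened without A431 everolimus replicate 2 (0.0607), and for CPA4 without A431 everolimus replicate 3 (0.114) and HSC-1 DMSO replicates 1, 2 and 3 (0.0535, 0.0546 and 0.0583). With all arrays kept but no intensity trend, all 3 calls were also lost (limma adjusted p = 0.0606, 0.104 and 0.0662). Over all alternatives these p-values ran from 0.000572 to 0.0606 for C3, from 0.0292 to 0.158 for CPA4 and from 0.0114 to 0.156 for MIR3936.

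**Figure D3:**
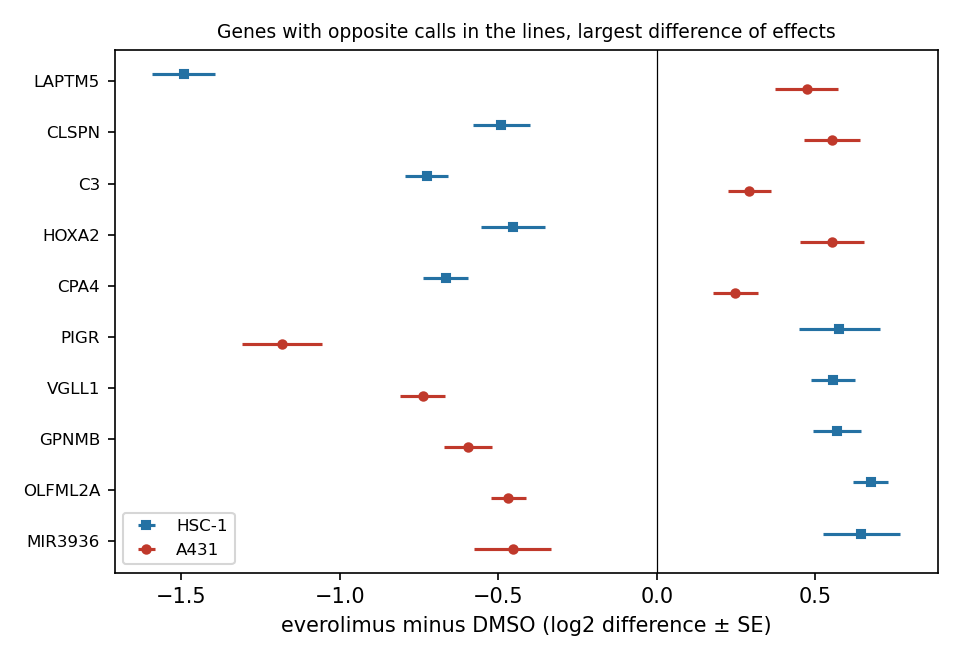
Log2 difference of everolimus minus DMSO (horizontal axis, bars are moderated SE) in HSC-1 (blue squares) and A431 (red circles) for the 5 genes of each direction with the largest difference of effects among the 85 with opposite calls. Among these 10, LAPTM5 has the largest HSC-1 difference (-1.49) and PIGR the largest A431 difference (-1.18).

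Among the other LAPTM family members, the NEDD4-type ligases and their adaptors, only the adaptor ARRDC3 was called in the directions of LAPTM5 in both lines. Its call was lost under 6 of 22 alternatives in HSC-1 and 10 of 22 in A431. Of 20 genes in this list, 13 had a named probe set and all 13 were tested. NEDD4, NEDD4L and the GGA adaptors are not analysed here. In HSC-1, 2 rose and 2 fell (30.8% called, median difference 0.05, against 18.6% and -0.02 over all genes). In A431, 1 rose and 3 fell (30.8% called, against 6.73%, median -0.08). For the difference between the lines, 4 were positive and 1 was negative (38.5% called, against 10.5%, median 0.12, against -0.01 over all genes).

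LAPTM4A and LAPTM4B, lysosomal and endosomal relatives of LAPTM5, fell in A431 (-0.23 ± 0.05 SE, limma adjusted p = 0.0112, and -0.20 ± 0.05, limma adjusted p = 0.0176) and had differences of 0.10 ± 0.05 and 0.05 ± 0.05 in HSC-1 (limma adjusted p = 0.196 and 0.607). Both differed between the lines in the direction opposite to LAPTM5 (0.33 ± 0.07 and 0.25 ± 0.07, limma adjusted p = 0.00676 and 0.0294). The ligase ITCH had differences of 0.08 ± 0.04 in HSC-1 and -0.06 ± 0.04 in A431, neither past the threshold. SMURF2, a ligase for SMAD proteins, fell in HSC-1 (-0.24 ± 0.06). NDFIP2, a membrane adaptor that recruits and activates these ligases, rose in HSC-1 (0.19 ± 0.05) and fell in A431 (-0.21 ± 0.05), with a difference of effects of 0.40 ± 0.07 (limma adjusted p = 0.00188). ARRDC3, an arrestin-related adaptor of the same ligases, fell in HSC-1 (-0.18 ± 0.06) and rose in A431 (0.20 ± 0.06), with a difference of -0.38 ± 0.08 (limma adjusted p = 0.00443), the sign of LAPTM5. ARRDC4, another such adaptor, rose in HSC-1 (0.33 ± 0.08), with a difference of 0.42 ± 0.12 (limma adjusted p = 0.0255).

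Several of these calls were lost when a single array was left out, which also leaves fewer arrays in its group. The fit without the intensity trend, which kept all arrays, lost calls too. In A431 these were LAPTM4A, LAPTM4B, NDFIP2 and ARRDC3 (limma adjusted p = 0.104, 0.116, 0.11 and 0.119). In HSC-1 they were SMURF2, NDFIP2 and ARRDC3 (0.0544, 0.0777 and 0.0837). The differences between the lines of LAPTM4A (0.0679) and LAPTM4B (0.128) were lost there as well. In A431 the 4 calls, of LAPTM4A, LAPTM4B, NDFIP2 and ARRDC3, were all lost without DMSO replicate 1 (limma adjusted p = 0.069, 0.0751, 0.0999 and 0.101) and without everolimus replicate 2 (0.0613, 0.1, 0.108 and 0.103). Those of LAPTM4B, NDFIP2 and ARRDC3 were lost without DMSO replicate 2 (0.0919, 0.0795 and 0.0772), and those of LAPTM4A, LAPTM4B and NDFIP2 without everolimus replicate 1 (0.065, 0.0605 and 0.0955). For ARRDC3, leaving out A431 DMSO replicate 3 (0.125), A431 everolimus replicate 3 (0.13) or HSC-1 DMSO replicate 2 (0.0531) had the same effect. In HSC-1 the NDFIP2 call was lost without DMSO replicate 1 (0.0515) or 3 (0.0598) and everolimus replicate 2 (0.102), the SMURF2 call without DMSO replicate 2 (0.0569) and everolimus replicate 3 (0.0627), and the ARRDC3 call without DMSO replicates 1 (0.156) and 2 (0.0851) and everolimus replicates 1 (0.0787) and 3 (0.107). The difference between the lines for LAPTM4B was lost without any one of 8 arrays, A431 DMSO replicates 1 and 2, A431 everolimus replicates 1 and 2, HSC-1 DMSO replicates 1 and 3 and HSC-1 everolimus replicates 1 and 2 (0.0604 to 0.0823). That of ARRDC4 did not pass once any of 6 arrays was left out, A431 DMSO replicate 1 or 3, A431 everolimus replicate 2, HSC-1 DMSO replicate 1 or 2 or HSC-1 everolimus replicate 3 (0.0522 to 0.0758). The differences between the lines for NDFIP2 and ARRDC3 passed under all 21 alternatives run (limma adjusted p from 0.000322 to 0.0264 and from 0.00112 to 0.0292).

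The partners of VGLL1 were counted in the same way. Of 26 TEAD factors, VGLL cofactors and Hippo pathway genes, 23 had a named probe set and 22 were tested. AMOT did not pass the level filter, and LATS1, LATS2 and PTPN14 are not analysed here. In HSC-1, 4 rose and 2 fell (27.3% called, against 18.6% of all genes, median 0.01). In A431, limma called 0 of 22 after adjustment, against 6.73% of all genes (median 0.01). At an unadjusted p under 0.05 there were 3, a count with no share of all genes to read it against. For the difference between the lines 1 gene passed (4.55%, against 10.5% of all genes).

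All 4 TEAD genes were measured above the array median on all 12 arrays, and none passed the threshold for everolimus in either line. TEAD1 had mean levels of 7.97 in HSC-1 with everolimus and 7.96 with DMSO, and of 7.96 and 7.90 in A431. TEAD2 had mean levels of 6.94 and 6.97 in HSC-1 but of 4.58 and 4.64 in A431. TEAD4 had a difference of -0.12 ± 0.09 SE in HSC-1 and 0.13 ± 0.09 in A431 (limma adjusted p = 0.424 and 0.523). YAP1 had a difference of 0.12 ± 0.05 in HSC-1 and -0.09 ± 0.05 in A431 (limma adjusted p = 0.146 and 0.400), and its second probe set, of mean level 4.67 against 7.93, had differences of 0.29 and 0.32. With the mean of both YAP1 probe sets its A431 difference turned to 0.12. WWTR1 had a difference of -0.13 ± 0.07 in HSC-1 and -0.20 ± 0.07 in A431 (limma adjusted p = 0.203 and 0.0822).

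Among the VGLL cofactors, VGLL3 rose in HSC-1, where VGLL1 was also higher. VGLL3, which also binds TEAD factors, rose by 0.55 ± 0.08 in HSC-1 (limma adjusted p = 0.000171), with mean levels of 6.60 with everolimus and 6.06 with DMSO. In A431 its difference was -0.13 ± 0.08 (limma adjusted p = 0.459), and the difference between the lines was 0.67 ± 0.12 (limma adjusted p = 0.00118). These VGLL3 calls passed under every alternative run (limma adjusted p up to 0.00185 and 0.00765). VGLL4, a TEAD cofactor that competes with YAP1, had a difference of 0.22 ± 0.08 in HSC-1 and -0.08 ± 0.08 in A431 (limma adjusted p = 0.062 and 0.641). VGLL2 lay near the array median in all 4 groups, with mean levels of 4.44 to 4.51. The Hippo scaffold SAV1 rose by 0.33 ± 0.06 and FRMD6, a FERM domain protein upstream of the pathway, by 0.29 ± 0.06 in HSC-1. WWC1, the scaffold KIBRA, fell by 0.26 ± 0.08 in HSC-1 (limma adjusted p = 0.0284), a call lost without HSC-1 DMSO replicate 1 (0.168), everolimus replicate 1 (0.092) and everolimus replicate 2 (0.0548). The lowest p of any alternative was 0.0189.

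**Figure D4:**
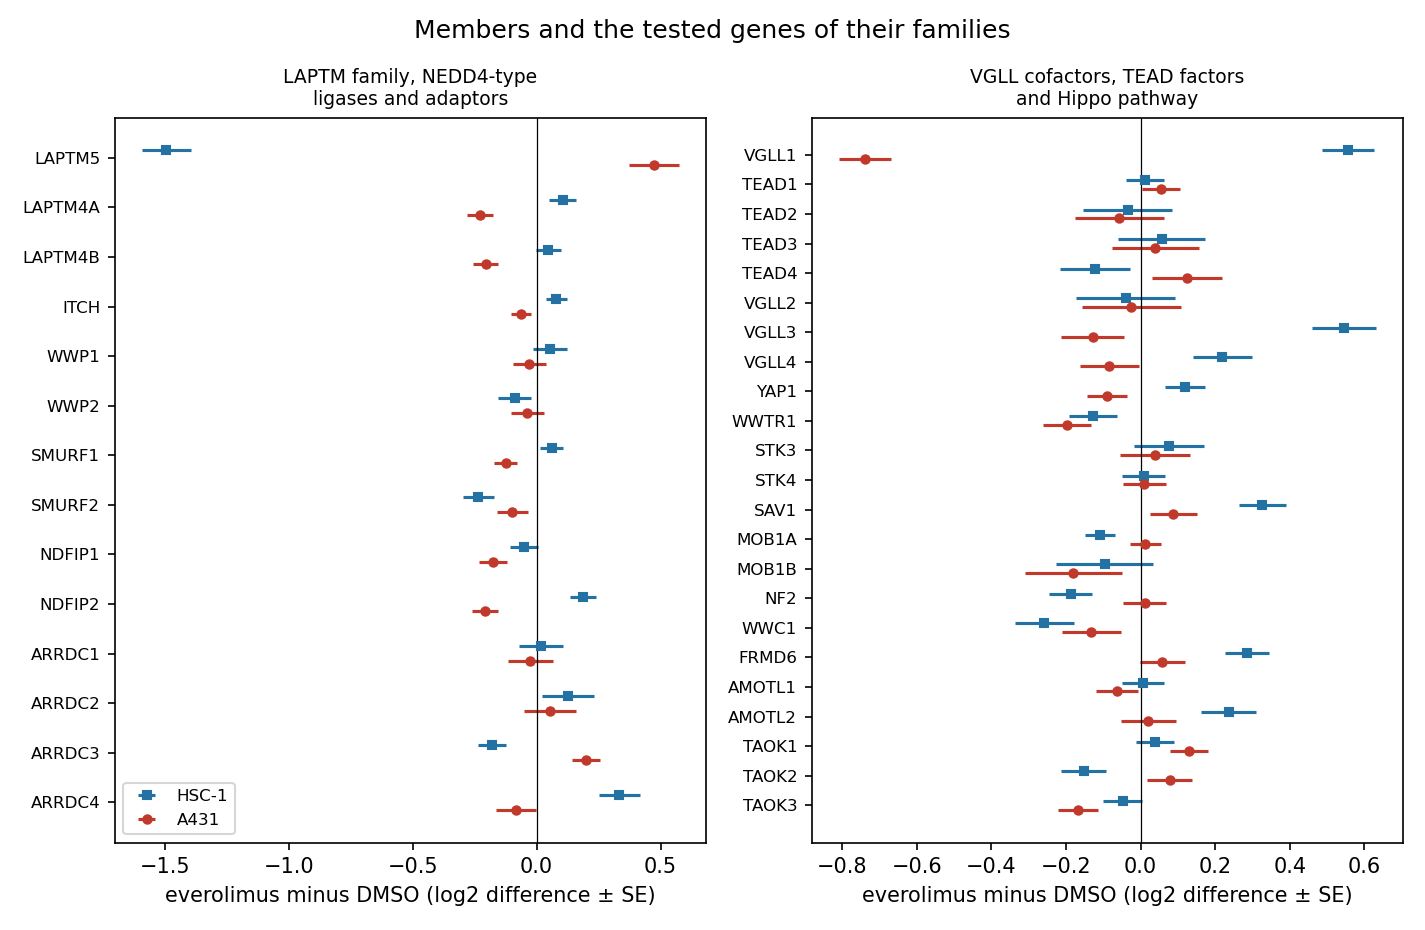
Log2 difference of everolimus minus DMSO (horizontal axes, bars are moderated SE) in HSC-1 (blue squares) and A431 (red circles) for LAPTM5 with its 13 tested relatives, ligases and adaptors (left) and VGLL1 with 22 tested cofactors, TEAD factors and Hippo genes (right). LAPTM5 (-1.49 and 0.47) and VGLL1 (0.56 and -0.74) stand apart from most of their lists, and VGLL3 shows a rise of 0.55 in HSC-1.

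Genes that TEAD and YAP1 are known to activate were counted next. Of 23 listed targets, 13 had a named probe set and all 13 were tested. CCN1 is not analysed here. In HSC-1, 5 rose and 1 fell (46.2% called, against 18.6% of all genes, median 0.11). In A431, 1 rose and 1 fell (15.4%, against 6.73%, median 0.06). For the difference between the lines, 2 were positive and 1 negative (23.1%, against 10.5%, median 0.05). AXL, a receptor tyrosine kinase, rose in both lines, by 0.23 ± 0.05 SE in HSC-1 and 0.51 ± 0.05 in A431, a difference of effects of -0.28 ± 0.07 (limma adjusted p = 0.0115). CRIM1, a membrane regulator of BMP ligands, rose in HSC-1 (0.33 ± 0.06), with a difference between the lines of 0.36 ± 0.08 (limma adjusted p = 0.00693). MYOF, the membrane repair protein myoferlin, had a difference between the lines of 0.25 ± 0.05 (limma adjusted p = 0.00261). FJX1 fell in HSC-1 (-0.31 ± 0.06).

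CCN2, a matricellular target widely used as a YAP readout, had a difference of 0.44 ± 0.18 in HSC-1 and 0.12 ± 0.18 in A431 (limma adjusted p = 0.0937 and 0.788). In HSC-1 CCN2 passed the threshold under 4 of 22 alternatives (limma adjusted p from 0.014 to 0.261 over all of them). It had 2 named probe sets, of which the one with the higher mean was used. In alternatives that kept every array of the line, its difference ran from 0.30 to 0.49 in HSC-1 and from 0.05 to 0.12 in A431. IGFBP5, a growth factor binding protein reported downstream of VGLL1 with TEAD4 in prostate cancer cells, had a difference of -0.28 ± 0.11 in HSC-1 and 0.12 ± 0.11 in A431 (limma adjusted p = 0.0756 and 0.617). AMOTL2, an angiomotin relative, rose in HSC-1 (0.24 ± 0.07, limma adjusted p = 0.0318). That call was lost without HSC-1 DMSO replicate 1 (0.0715), 2 (0.0826) or 3 (0.0787) and everolimus replicate 1 (0.137) or 3 (0.1), in a range from 0.00445. IGFBP3, which binds insulin-like growth factors, fell in A431 (-0.31 ± 0.08, limma adjusted p = 0.0326), a call lost without any one of the 6 A431 arrays (0.0819 to 0.119), in a range from 0.000804.

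Lysosomal membrane proteins other than LAPTM5 were also counted. Of 30 listed, 19 had a named probe set and all 19 were tested. In HSC-1, 5 rose, against 7.34% of all genes, and 1 fell, against 11.3% (31.6% called, against 18.6%, median 0.07). In A431, 1 rose and 1 fell (10.5%, against 6.73%). For the difference between the lines 1 passed (5.26%, against 10.5%). LAMP1, a main glycoprotein of the lysosomal membrane, rose by 0.33 ± 0.04 SE in HSC-1 (limma adjusted p = 5.32e-06) and differed between the lines by 0.25 ± 0.05 (limma adjusted p = 0.00373). The tetraspanin CD63 rose by 0.22 ± 0.06 in HSC-1 and LAMP2 by 0.18 ± 0.06. OSTM1, a chloride transporter subunit, rose by 0.28 ± 0.07 in HSC-1 and 0.26 ± 0.07 in A431, and the scavenger receptor family member CD68 fell in both lines, by 0.17 ± 0.05 in HSC-1 and 0.20 ± 0.05 in A431.

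The LAMP2 call was lost without HSC-1 DMSO replicate 1 (limma adjusted p = 0.0748) or 3 (0.171) and everolimus replicate 1 (0.0977) or 2 (0.114), and the OSTM1 call in HSC-1 without DMSO replicate 2 (0.0688) and everolimus replicate 1 (0.0562) or 2 (0.0533). In A431 the OSTM1 call was lost without DMSO replicate 1 or 3, any everolimus replicate or HSC-1 everolimus replicate 2 (0.0508 to 0.167). The HSC-1 value of CD68 was added after its values were seen, and its call was lost without DMSO replicate 1 (0.0783) or 3 (0.0682) and everolimus replicate 2 (0.0565) or 3 (0.0776). In A431 the CD68 call was lost without DMSO replicate 2 (0.0747) and everolimus replicate 1 (0.0548) or 2 (0.056). With all arrays kept but no intensity trend, the CD68 calls in HSC-1 and A431 were lost (limma adjusted p = 0.0874 and 0.103). So were the LAMP2 call in HSC-1 (0.107) and the OSTM1 call in A431 (0.0727).

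LAPTM5 is a marker of blood cells, and most other leukocyte transcripts lay below or near the array median in these cultures. Of 19 leukocyte genes, 12 had a named probe set, and CD53, CD37, CD48, CYTIP, LCP2 and IKZF1 lay below the array median on all 12 arrays. PTPRC is not analysed here. The mean level over the 12 ran from 4.35 to 4.50 on the HSC-1 arrays with everolimus, from 4.48 to 4.54 with DMSO, from 4.32 to 4.35 on the A431 arrays with everolimus and from 4.36 to 4.38 with DMSO. LCP1, the actin bundler plastin 2, lay far above the median, with mean levels of 10.7 and 10.8 in HSC-1 with everolimus and DMSO and 9.52 and 9.63 in A431. LCP1 was the 1 of 6 tested leukocyte genes (16.7%, against 18.6% of all genes) that passed in HSC-1 (-0.15 ± 0.05, limma adjusted p = 0.0433), a call lost without any one of 7 arrays (0.0503 to 0.163), A431 DMSO replicates 1 and 2, A431 everolimus replicate 1, HSC-1 DMSO replicates 1 and 3 and HSC-1 everolimus replicates 2 and 3. SPI1, the blood cell transcription factor PU.1, had mean levels of 4.54 and 4.63 in HSC-1 and 4.42 and 4.52 in A431. LST1 lay above the median on all 12 arrays, with mean levels of 5.40 and 5.48 in HSC-1 and 5.37 and 5.45 in A431. The LAPTM5 means in A431 were near these, at 5.67 and 5.20. All 7 squamous keratinocyte markers with a named probe set, among them KRT5 and KRT14, lay above the median on every array. Their mean level was 9.47 on the HSC-1 arrays with everolimus and 9.42 to 9.46 with DMSO, and 8.99 to 9.02 on the A431 arrays with everolimus and 9.15 to 9.18 with DMSO. It was lower with everolimus in A431, as was VGLL1, and its part in that result was not tested. Of these 7 markers, 4 fell and 0 rose in A431 (57.1% called, against 6.73% of all genes). In HSC-1, 2 rose and 2 fell (57.1%, against 18.6%). For the difference between the lines, 3 were positive, the sign of VGLL1, and 0 negative (42.9%, against 10.5%). The melanocyte and endothelial markers passed the level filter in 0 of 3 and 0 of 2 cases. Of the fibroblast markers 1 of 2 passed, LUM, with mean levels of 4.95 and 4.89 in A431.

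Epithelial transcription factors gave the setting of VGLL1, an epithelial gene. Of 16 listed, 13 had a named probe set and 12 were tested. In HSC-1, 1 rose and 3 fell (33.3% called, against 18.6% of all genes, median -0.04). In A431, 2 fell (16.7%, against 6.73%, median -0.08). For the difference between the lines 1 passed (8.33%, against 10.5%). GRHL1 and GRHL2 are grainyhead-like factors of epithelial barrier genes. GRHL1 fell in both lines, by 0.51 ± 0.12 SE in HSC-1 and 0.48 ± 0.12 in A431, where the call was lost without DMSO replicate 1 (limma adjusted p = 0.0778) or 2 (0.0776) and everolimus replicate 1 (0.0822) or 3 (0.0648). GRHL2 rose in HSC-1 (0.29 ± 0.04), with a difference between the lines of 0.26 ± 0.06 (limma adjusted p = 0.0126). EHF, an epithelial ETS factor, fell by 0.28 ± 0.05 in HSC-1. OVOL2, a zinc finger repressor that maintains epithelia, fell by 0.47 ± 0.10 in A431. TFAP2C, an AP-2 factor shared by epithelia and trophoblast, fell by 0.21 ± 0.06 in HSC-1, a call lost without HSC-1 DMSO replicate 2 (0.108) or 3 (0.101) and everolimus replicate 1 (0.0557) or 2 (0.0736).

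Genes whose levels followed LAPTM5 or VGLL1 most closely over the 12 arrays were named by correlation, as a description. The arrays share line and treatment, so high values are common and carry no p. Over the log2 levels, Pearson's r with LAPTM5 was 0.993 for the tRNA synthetase IARS1, 0.993 for the collagenase MMP1, 0.990 for the replication helicase MCM8 and 0.989 for the growth factor NRG1. MMP1 had log2 differences of -1.32 ± 0.15 SE in HSC-1 and 0.27 ± 0.15 in A431, where its mean levels of 3.42 with everolimus and 3.15 with DMSO were below the array medians. With VGLL1, r was 0.990 for the adhesion molecule ALCAM, 0.989 for the receptor ERBB3, 0.989 for the stress transcription factor ATF6B and 0.988 for the semaphorin receptor PLXNB2. ERBB3 had differences of 0.25 ± 0.08 in HSC-1 and -0.28 ± 0.08 in A431.

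When each line's own mean was subtracted, so that mainly the everolimus effects remained, other genes came first. The highest r with LAPTM5 was then 0.979 for the phosphatase UBASH3B, 0.978 for the spindle checkpoint protein MAD2L1, 0.974 for RANBP1, a regulator of nuclear transport, and 0.973 for the replication factor MCM10. Their differences ran from -0.62 to -0.37 in HSC-1 and from 0.08 to 0.16 in A431, smaller in both lines than those of LAPTM5 (-1.49 and 0.47). None of these genes passed the threshold in A431 (limma adjusted p from 0.0678 to 0.568). With VGLL1 the highest r was 0.974 for PLXNB2, 0.962 for GPNMB, 0.947 for TPRG1L and 0.944 for the antiviral factor TRIM22. TRIM22 had differences of 0.27 ± 0.06 in HSC-1 and -0.34 ± 0.06 in A431. LAPTM5 and VGLL1 correlated with each other at -0.96 over the levels and at -0.77 after each line's mean was subtracted (n = 12 arrays), values that the choice of these genes favours.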

How the data were processed

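The authors deposited RMA log2 values for each probe set, and Expression Console from Affymetrix was the software, per the submitters' processing notes. Versions, build and probe set level were not given in the sources used here. The table held 53617 probe sets on 12 arrays, with array medians from 4.34 to 4.39, and correlations of 0.989 to 0.992 within a group. Read depth does not apply to arrays, whose number limits the precision. The platform annotation gave 16098 probe sets 1 gene symbol and left 37519 unnamed here. Symbols were updated by Entrez identifier (16098 matched) to GRCh38.p14. Each gene was read from its highest-mean probe set, and genes above the array median on at least 3 arrays were tested.

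Group means were fitted with lmFit and eBayes with an intensity trend in limma 3.58.1 (R 4.3.3), with Benjamini-Hochberg adjustment over 10613 genes, 8 residual degrees of freedom and a threshold of 0.05. The procedure was tested on simulated data in which 200 of 10613 genes changed, fewer than the 714 called in A431 and 1977 in HSC-1. The adjustment depends on how many genes change, so the shares below hold for that setting only. The procedure recovered 39.5% of log2 changes of 0.3 in A431 and 50.7% in HSC-1, so many changes of that size were missed there. For changes of 0.5 the shares were 75.4% and 77%. Among the calls, 8.05% were false in A431, above the threshold of 0.05, and 4.52% in HSC-1. The median SE was 0.09 within a line. The members, gene lists and naming rule were chosen with earlier results of these data known. Named were the fixed partners of both genes, up to 4 called genes with the largest change per list and comparison, 5 per direction of the opposite calls, and the 4 best correlated per measure.

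Alternatives tried were the replicate number as a block, a level filter left out or set at the 60th percentile, priors without trend or robust, array weights, renewed quantile normalization, median centring, the 6 arrays of a line alone, the mean of probe sets and leaving out each array.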

Additional observations from a re-analysis of the deposited data

Results flagged for a closer look

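The everolimus effect differed between HSC-1 and A431 for 21 genes, LAPTM5 and VGLL1 with those named from the lists or from the opposite calls. This counts named genes only, and 1118 of all 10613 genes (10.5%) passed the limma threshold for the difference. Genes named for their correlation with LAPTM5 or VGLL1, apart from GPNMB, and the squamous keratinocyte markers are not counted here. The effect in HSC-1 less that in A431 was -1.97 for LAPTM5 and 1.30 for VGLL1, values that chose these genes and carry no test.

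The other genes were past the limma threshold for this difference, which the rule that named them used or favoured, so this is no separate evidence. CLSPN (-1.04), C3 (-1.02), HOXA2 (-1.005) and CPA4 (-0.91) had the sign of LAPTM5 and were selected for opposite calls in the lines. PIGR (1.76), GPNMB (1.16), OLFML2A (1.14) and MIR3936 (1.10) had the sign of VGLL1 and were selected in the same way.

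Among the partners of both genes, the difference was 0.67 for VGLL3, 0.33 for LAPTM4A, 0.25 for LAPTM4B, 0.40 for NDFIP2, 0.42 for ARRDC4 and -0.38 for ARRDC3. Among TEAD and YAP1 targets it was 0.36 for CRIM1, 0.25 for MYOF and -0.28 for AXL. It was 0.25 for LAMP1 and 0.26 for GRHL2. No group held more than 3 arrays, so single arrays were not screened as outliers.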

How the results depend on the processing

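The 6 everolimus values of LAPTM5 and VGLL1 and their 2 line differences kept their sign under each of 21 or 22 alternatives and moved by less than the SD within groups. LAPTM5 ran from -1.51 to -1.48 in HSC-1 and from 0.39 to 0.61 in A431, and VGLL1 from 0.50 to 0.65 and from -0.77 to -0.72. The line differences passed at a limma adjusted p of at most 5.31e-11. Without the intensity trend, 438 genes were called in A431, against 714, 33 with opposite signs, against 85, 2 of the listed genes in A431, against 10, and 7 for the difference between the lines, against 11. Leaving out each array gave 456 to 836 genes in A431, 43 to 96 with opposite signs, and 3 to 13 listed genes in A431 and 16 to 27 in HSC-1, against 26. The cause was not tested. The YAP1 difference in A431 turned to 0.12 with the mean of probe sets. The CCN2 difference in A431 ran from -0.11 (DMSO replicate 3 of A431 left out) to 0.28 (everolimus replicate 2 left out) and was -0.04 with everolimus replicate 3 left out. Of 87 calls of named genes, 52 held under every alternative and 35 were lost under at least 1. Without the intensity trend the differences between the lines of AXL (limma adjusted p = 0.055), MYOF (0.0523), LAMP1 (0.0518), GRHL2 (0.0706), LAPTM4A (0.0679) and LAPTM4B (0.128) were lost. The A431 calls of IGFBP3 (0.0656) and GRHL1 (0.0597) and the HSC-1 calls of AMOTL2 (0.0574) and LCP1 (0.159) were also lost in that fit. Of 32 values of named genes not called, 8 were called under at least 1 alternative. Among these in HSC-1 were CCN2 (4 of 22 alternatives) and VGLL4, YAP1 and IGFBP5 (2 of 22 each). Same-numbered arrays did not deviate together (correlations from -0.15 to 0.02). With the replicate number as a block, 1845 genes were called in HSC-1, 621 in A431, 1005 for the difference between the lines and 69 with opposite signs, and the A431 calls of ARRDC3, OSTM1, CPA4 and ERBB3 were lost (limma adjusted p = 0.0546, 0.0577, 0.0682 and 0.0509). That block left the LAPTM5 difference between the lines at -1.97 and that of VGLL1 at 1.30.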
